A study of Mus musculus with 9 samples.

Results

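The 10 genes that encode enzymes and partner subunits writing or removing methyl groups at lysine 27 and lysine 36 of histone H3 were followed in mouse skin in which *Supt6* had been deleted. The genes were chosen by name: *Ezh1*, *Ezh2*, *Eed*, *Suz12*, *Jarid2*, *Kdm6a*, *Kdm6b*, *Setd2*, *Nsd1* and *Kdm2b*. All 10 were found among the 17943 genes of the count table, and all 10 were among the 16426 genes that were tested.

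The libraries came from 9 mice, of which 5 were controls and 4 were *Supt6* KO. The KO mice carried K14-CreERT and *Supt6* fl/fl alleles and received tamoxifen, whereas the controls, labelled wild type, were *Supt6* fl/fl according to the study and were given corn oil, and whether they carried Cre is not stated. Both groups share the floxed alleles and differ in tamoxifen, in the deletion and possibly in Cre, and these cannot be told apart. Skin was taken 10 days after the last injection; the labels name ear and the study's text dorsal skin, and no age is given in the labels. The K14 promoter drives Cre in keratinocytes of the basal epidermis, whereas each library holds RNA of whole skin. Total counts lay between 29627334 and 30491190 in the controls and between 30597190 and 30967109 in the KO mice.

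SPT6 is a histone chaperone that travels with elongating RNA polymerase II. Through its partner IWS1 it is linked to SETD2, the enzyme that trimethylates H3K36 in transcribed genes, and it has been linked to the removal of H3K27 methylation, the repressive mark that Polycomb repressive complex 2 (PRC2) places. PRC2 consists of a catalytic subunit, EZH1 or EZH2, held by EED and SUZ12, with accessory subunits such as JARID2. In the epidermis PRC2 keeps lineage and cell cycle inhibitor genes silent in progenitor cells, and the demethylase KDM6B acts in the opposite direction during keratinocyte differentiation.

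The KO mice had less *Supt6* RNA, although not an absence of it. *Supt6* stood at 74.5, 56.6, 63.6, 91.1 and 96.7 normalised CPM (counts relative to the library total, after TMM scaling, which evens out differences in composition) in controls 1 to 5. The 4 KO mice had 28.6, 24.1, 21.9 and 28.4 CPM. The groups did not overlap, and the log2 fold change was -1.57 (SE 0.18, adjusted p = 1.3e-05 by the quasi-likelihood test of edgeR, Benjamini-Hochberg adjusted across the table, as for every adjusted p on a log2 fold change). When each library's trend with transcript length was removed (the length correction), it was -0.76 (adjusted p = 0.00017).

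Of the 10 genes, *Eed*, *Ezh2* and *Suz12* were called higher in KO skin at an adjusted p under 0.05, and *Kdm6b*, *Setd2*, *Nsd1*, *Ezh1* and *Jarid2* lower. *Kdm6a* and *Kdm2b* were not called. Over all genes tested 34.1% were called higher and 36.8% lower, 71% in all, so that 3 and 5 of 10 lie near the background and the counts alone do not set the 10 genes apart. With a change of at least 2-fold as a further condition 1 gene was higher (*Eed*) and 4 were lower, against 20.9% and 24.9% of all genes. Every KO mouse lay above every control in 2 of the 10 genes and below in 4, against 28.9% and 31.8% of all genes, again near the background. The median log2 fold change was -0.30 over the 10 genes and -0.07 over all genes.

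**Figure D1:**
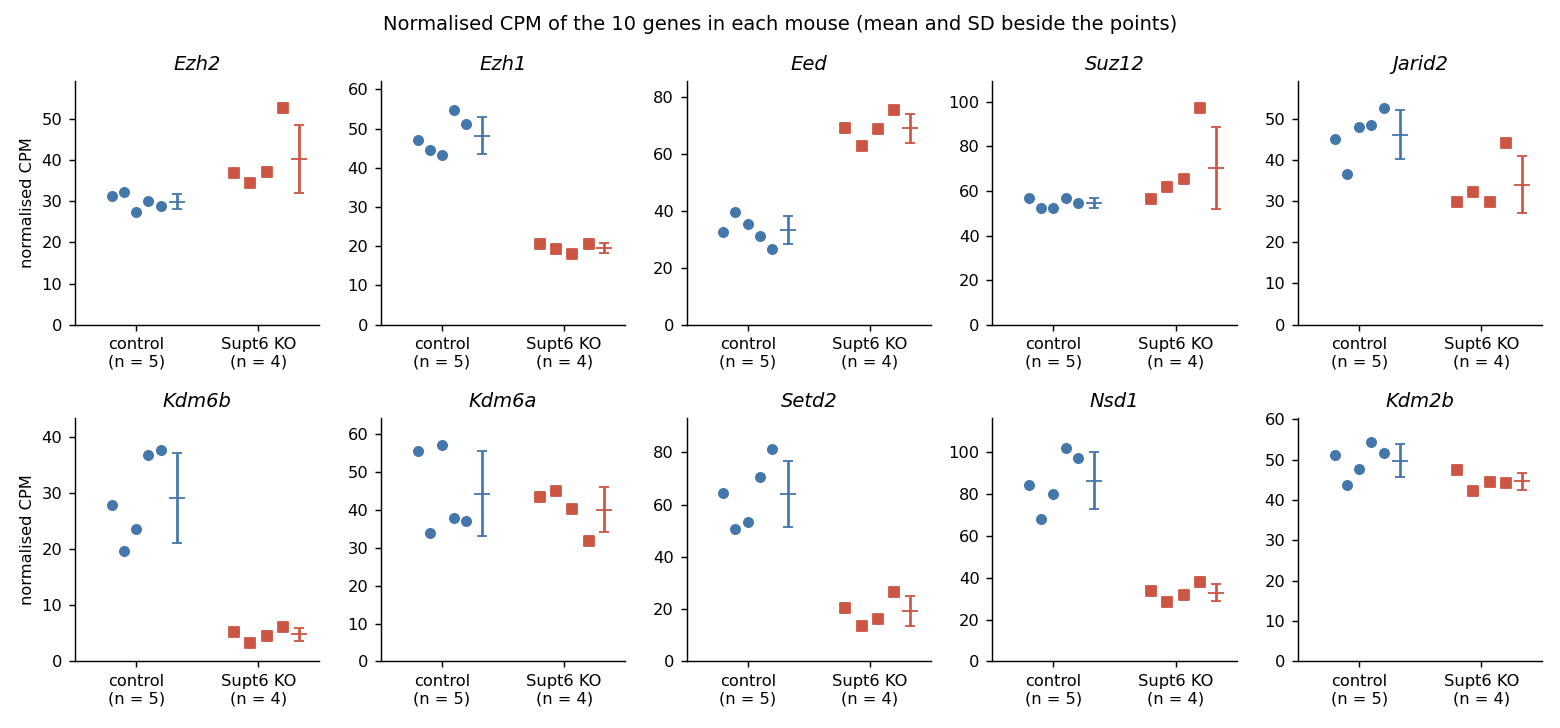
Each panel plots the normalised CPM (vertical axis, from 0) of 1 gene in the 5 control mice (blue circles) and the 4 *Supt6* KO mice (red squares), with the mean and SD beside the points. In *Eed* and *Ezh2* every KO mouse lies above every control, in *Ezh1*, *Kdm6b*, *Setd2* and *Nsd1* every KO mouse lies below, and in the other 4 genes the groups overlap; with library totals in place of TMM scaling the direction of *Ezh2* and *Suz12* is turned.

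With TMM scaling the catalytic subunits of PRC2 were called in opposite directions, although with library totals *Ezh2* was at -0.24, not called. EZH2 is the more active methyltransferase and is typical of dividing cells, and EZH1 is its paralog, found also in resting cells. The promoters of the pair are shown first, because these paralogs were called in opposite directions. Each is the 250 bases before a start site that RefSeq gives on GRCm38, 5′ to 3′ on the gene's strand, with matches to CCAAT, a motif bound by NF-Y, in capitals on either strand (ATTGG on the other). GGGCGG, the core letters of SP factor sites, and the E2F letters TTTGGCGC or TTTCCCGC were searched on both strands as well.
Ezh2 promoter, chr6:47595031-47595280, minus strand: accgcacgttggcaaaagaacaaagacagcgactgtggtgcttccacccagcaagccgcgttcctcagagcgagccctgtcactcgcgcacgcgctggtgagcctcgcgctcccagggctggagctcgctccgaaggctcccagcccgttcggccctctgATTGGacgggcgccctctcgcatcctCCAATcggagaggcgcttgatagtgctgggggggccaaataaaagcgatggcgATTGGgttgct
Ezh1 promoter, chr11:101226464-101226713, minus strand: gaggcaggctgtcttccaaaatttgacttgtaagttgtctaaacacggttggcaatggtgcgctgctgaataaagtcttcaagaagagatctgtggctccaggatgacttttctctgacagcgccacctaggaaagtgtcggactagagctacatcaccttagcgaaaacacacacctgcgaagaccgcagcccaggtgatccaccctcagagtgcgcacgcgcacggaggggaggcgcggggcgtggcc
The *Ezh2* window holds 3 CCAAT matches and 23 CG dinucleotides, and the *Ezh1* window holds no match to any of these motifs and 14 CG dinucleotides. Of 32851 promoter windows of this length, 33.8% hold CCAAT, 32.7% hold GGGCGG and 1.3% hold the E2F letters, with a median of 6 CG dinucleotides. These matches are letters only and say nothing of binding. The start site used for *Ezh2* lies inside the gene span given next, so that 240 bases of its window fall within that span. The *Ezh1* window lies outside its span.

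*Ezh2* (chr6:47530274-47595270, minus strand, 20 exons) stood at 31.3, 32.2, 27.4, 30.1 and 28.8 CPM in the controls and 36.8, 34.5, 37.2 and 52.6 CPM in the KO mice. Every KO mouse was above every control, and KO mouse 4 was well above the other KO mice. The means were 29.96 ± 1.90 CPM (SD, n = 5) and 40.3 ± 8.32 CPM (SD, n = 4), and the log2 fold change of 0.43 (SE 0.14) passed the test (adjusted p = 0.014). Without KO mouse 4 it was 0.27, and with library totals in place of TMM scaling it was -0.24, not called. The call was also lost with the Y-linked level as a covariate (0.41, adjusted p = 0.06) and over the 7 mice with Y-linked counts (0.41, adjusted p = 0.07), described with *Kdm6a*.

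*Ezh1* (chr11:101191115-101226463, minus strand, 21 exons) stood at 47.1, 44.6, 43.3, 54.6 and 51.3 CPM in the controls and at 20.6, 19.3, 18.0 and 20.6 CPM in the KO mice. The groups were far apart and the KO mice close together, with a coefficient of variation of 6.36%. The log2 fold change was -1.30 (SE 0.11, adjusted p = 2.3e-06), so that KO skin kept 40.7% of the control mean.

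Setting the pair against each other within each mouse removes the library scaling. The log2 ratio of *Ezh2* to *Ezh1* counts was -0.59, -0.47, -0.66, -0.86 and -0.83 in the controls and 0.84, 0.83, 1.05 and 1.35 in the KO mice. By count, without regard to length, *Ezh1* was ahead in all 5 controls and *Ezh2* in all 4 KO mice. The ratio rose 3.25-fold (log2 difference 1.70, two-sided exact permutation test p = 0.0159, adjusted p = 0.0198 over the 5 ratios examined), and 0.0159 is the smallest p that 5 against 4 mice allow. Per unit of length, from the deposited TPM of 6 mice, the ratio was between 0.92 and 1.21 in the 5 controls. Per length the pair thus stood about level in the controls. The ratio was 4.27 in KO mouse 4, the only KO mouse with TPM and the highest of the KO mice by count.

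EED is the subunit that reads trimethylated H3K27 and stimulates the complex, and SUZ12 is the scaffold on which it assembles. The *Eed* gene (chr7:89954654-89980976, minus strand, 12 exons) stood at 32.4, 39.7, 35.5, 31.1 and 26.5 CPM in the controls and at 69.0, 62.6, 68.7 and 75.3 CPM in the KO mice. The lowest KO mouse was well above the highest control. This was the largest rise among the 10 genes, with a log2 fold change of 1.06 (SE 0.13, adjusted p = 1.9e-05), and with library totals it remained a rise, of 0.38.

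*Suz12* (chr11:79993106-80034123, plus strand, 16 exons) stood at 56.9, 52.4, 52.5, 56.7 and 54.7 CPM in the controls and at 56.4, 61.9, 65.5 and 97.1 CPM in the KO mice. KO mouse 1 lay inside the control range and KO mouse 4 far above the other KO mice. The log2 fold change of 0.36 (SE 0.15) was just past the threshold (adjusted p = 0.049). Without KO mouse 4 it was 0.16 (adjusted p = 0.13), and the call was lost in 14 of 20 alternative treatments and the direction turned in 1, library totals, at -0.30.

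The core subunits differed in their change by count. The log2 ratio of *Suz12* to *Eed* counts was 0.81, 0.40, 0.57, 0.87 and 1.04 in the controls and -0.29, -0.02, -0.07 and 0.37 in the KO mice. The groups did not overlap, with KO mouse 4 closest to the controls. The ratio fell 1.67-fold (log2 difference -0.74, two-sided exact permutation test p = 0.0159, adjusted p = 0.0198). The transcripts differ in length, 4373 bases for *Suz12* and 2067 for *Eed*, and with the length correction the difference was -0.10 (exact permutation p = 0.476), with overlapping groups.

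The 250 bases before the *Suz12* start site are shown as the window among the catalytic and core PRC2 genes that holds all 3 kinds of match, in capitals: TTTCCCGC 1 time, CCAAT 1 time and GGGCGG 3 times, beside 37 CG dinucleotides.
Suz12 promoter, chr11:79992856-79993105, plus strand: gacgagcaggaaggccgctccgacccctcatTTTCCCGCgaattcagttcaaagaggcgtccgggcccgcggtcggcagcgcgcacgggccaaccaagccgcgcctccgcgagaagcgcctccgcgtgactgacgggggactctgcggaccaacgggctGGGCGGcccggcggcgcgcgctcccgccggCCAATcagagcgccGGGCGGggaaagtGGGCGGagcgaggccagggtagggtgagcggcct
Eed promoter, chr7:89980977-89981226, minus strand: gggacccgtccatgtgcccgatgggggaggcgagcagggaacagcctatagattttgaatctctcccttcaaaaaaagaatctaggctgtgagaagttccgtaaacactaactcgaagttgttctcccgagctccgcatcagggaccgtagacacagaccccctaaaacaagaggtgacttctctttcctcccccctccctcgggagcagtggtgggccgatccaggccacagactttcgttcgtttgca
The *Eed* window, of the gene that rose most, holds none of the 3 motifs and 12 CG dinucleotides.

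JARID2 is a catalytically inactive member of the Jumonji family that helps bring PRC2 to its targets. *Jarid2* (chr13:44730774-44921643, plus strand, 18 exons) has the longest span of the 10 genes, at 191 kb. It stood at 45.0, 36.6, 47.9, 48.3 and 52.5 CPM in the controls and at 29.7, 32.2, 29.8 and 44.1 CPM in the KO mice. KO mouse 4 lay inside the control range and the other KO mice below it. Over the groups the log2 fold change was -0.44 (SE 0.15, adjusted p = 0.021). The call was lost without KO mouse 1 (adjusted p = 0.063), without KO mouse 3 (0.064), with the Y-linked covariate (0.07) and over the mice with Y-linked counts (0.079), and with the length correction it turned to 0.30 (adjusted p = 0.044).

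Other PRC2 subunits were counted from a list of 14 genes, of which 13 were tested. With TMM scaling, the counts of this and each later list stand beside 34.1% of all genes called higher and 36.8% lower. Of the 8 tested subunits outside the 10 genes, 4 were higher and 2 lower. Those higher were *Mtf2*, a Polycomb-like subunit that brings PRC2 to CpG islands (from 23.1 to 61.7 CPM, log2 fold change 1.42, adjusted p = 2.1e-06), *Epop* (0.94), *Aebp2* (0.76) and *Rbbp4*, a histone-binding subunit shared with other complexes (0.75). Those lower were the other Polycomb-like subunits *Phf1* (-1.32) and *Phf19* (-0.81). With library totals *Epop* (0.34), *Aebp2* (0.06) and *Rbbp4* (0.07) were not called, whereas with the length correction *Aebp2* was at 1.48 and *Rbbp4* at 1.20. The groups overlapped for *Phf19*, whose call was lost with the length correction (-0.49, adjusted p = 0.14), with the replicate block (adjusted p = 0.078) and when any of 5 mice was left out in turn, so that among the 3 Polycomb-like paralogs the contrast rests on *Mtf2* and *Phf1*. *Rbbp7* was at 149 CPM in the controls and 176 CPM in the KO mice and was not called (adjusted p = 0.31), and without KO mouse 4 its log2 fold change was -0.08. *Epop* rested largely on KO mouse 4, whose 848 counts compare with 189 to 256 in the other KO mice and 208 to 345 in the controls.

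Of the H3K27 demethylases, *Kdm6b* showed the strongest fall of the 10 genes and *Kdm6a* no call. KDM6B (JMJD3) and KDM6A (UTX) remove methyl groups from H3K27. *Kdm6b* (chr11:69398508-69420367, minus strand, 23 exons) stood at 27.9, 19.6, 23.6, 36.8 and 37.7 CPM in the controls and at 5.18, 3.31, 4.53 and 6.22 CPM in the KO mice. In counts, the controls had between 717 and 1482 and the KO mice between 69 and 173. The groups did not come near each other. Its log2 fold change was -2.59 (SE 0.25, adjusted p = 4.4e-06, 95% interval -3.14 to -2.05), which leaves 16.5% of the control mean (-1.77 with the length correction), and 5.31% of all genes tested had a lower log2 fold change.

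*Kdm6a* (chrX:18160862-18279936, plus strand, 29 exons) stood at 55.6, 33.8, 57.2, 37.8 and 37.0 CPM in the controls and at 43.3, 45.1, 40.1 and 31.9 CPM in the KO mice. The controls fell into a high pair and a low trio, and the KO mice spread around the low trio. *Kdm6a* had a log2 fold change of -0.14 (95% interval -0.55 to 0.26, adjusted p = 0.50). Against *Kdm6a*, *Kdm6b* fell 5.52-fold within mice: the log2 ratio was -0.99, -0.78, -1.28, -0.04 and 0.03 in the controls and -3.06, -3.76, -3.14 and -2.35 in the KO mice (two-sided exact permutation test p = 0.0159, adjusted p = 0.0198).

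*Kdm6a* escapes X inactivation and has a Y-linked paralog, *Uty*, so its level depends on the sex chromosomes of the mouse. The high pair, controls 1 and 3, had 3 and 2 counts in all from *Ddx3y*, *Kdm5d*, *Eif2s3y* and *Uty*, and the other 3 controls and all 4 KO mice had between 5483 and 7345. The labels give no sex. *Uty* had 0 counts in controls 1 and 3, between 18.0 and 23.9 CPM in the other 3 controls and between 25.1 and 45.9 CPM in the KO mice. *Kdm6a* and *Uty* summed to between 55.0 and 57.7 CPM in all 5 controls, whether or not Y-linked counts were present, and to between 57.0 and 91.0 CPM in the KO mice. With the Y-linked level as a covariate, the log2 fold change of *Kdm6a* was 0.19 (adjusted p = 0.31), and over the 7 mice with Y-linked counts it was 0.15 (adjusted p = 0.44). Reads of the paralogs may have been split between them in counting.

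The partners that KDM6A and KDM6B share with the KMT2C and KMT2D methyltransferases were mixed. Of 10 tested genes of this list other than *Kdm6a* and *Kdm6b*, 4 were higher and 4 lower. *Dpy30*, a small subunit common to the KMT2 complexes, went from 26.9 to 107 CPM (log2 fold change 1.99, adjusted p = 2.4e-06, and 0.90 with the length correction), with *Pagr1a* at 0.72 and *Ash2l* at 0.48. With library totals *Ash2l* turned to -0.21 and *Pagr1a* was at 0.04, not called, and with the length correction *Pagr1a* was at 0.16 (adjusted p = 0.28). *Kmt2d*, the H3K4 methyltransferase of these complexes, fell from 28.1 to 5.95 CPM (-2.24, adjusted p = 8e-06), and the coactivator *Ncoa6* fell by 1.26 on the log2 scale. With the length correction these were -0.93 and -0.39.

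Of 6 H3K36 methyltransferases, *Setd2* and *Nsd1* included, 1 was higher and 4 were lower, beside 34.1% and 36.8% of all genes. With the length correction 3 were higher and 3 lower, beside 36% and 31.8% of all genes. SETD2 places H3K36 trimethylation behind elongating polymerase, and NSD1 places dimethylation, mainly between genes. *Setd2* (chr9:110532500-110618633, plus strand, 21 exons) stood at 64.5, 50.7, 53.3, 70.5 and 81.3 CPM in the controls and at 20.3, 13.5, 16.1 and 26.6 CPM in the KO mice. Every KO mouse lay far below every control. The log2 fold change was -1.74 (SE 0.21, adjusted p = 2.3e-05), leaving 29.9% of the control mean, and -0.81 with the length correction.

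*Nsd1* (chr13:55209782-55318325, plus strand, 23 exons) had the longest transcript of the 10 genes, at 12784 bases. It stood at 84.3, 68.0, 80.1, 102 and 97.3 CPM in the controls and at 33.6, 28.4, 31.5 and 37.9 CPM in the KO mice. Here too the groups were far apart. For *Nsd1* the log2 fold change was -1.39 (SE 0.14, adjusted p = 7.4e-06), leaving 38.0% of the control mean, and -0.29 with the length correction (adjusted p = 0.038).

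*Setd2* fell somewhat more than *Nsd1*. Their log2 ratio was -0.39, -0.42, -0.59, -0.54 and -0.26 in the controls and -0.72, -1.07, -0.97 and -0.51 in the KO mice. KO mouse 4 lay inside the control range. The difference was -0.38 (two-sided exact permutation test p = 0.0476, adjusted p = 0.0476), and the call was lost when any mouse other than KO mouse 4 was left out.

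Of the 4 other H3K36 methyltransferases tested, 1 was higher and 2 lower. *Ash1l*, which dimethylates H3K36 and opposes Polycomb silencing, fell from 52.3 to 16.7 CPM (log2 fold change -1.65, adjusted p = 1.3e-05, and -0.56 with the length correction), and *Nsd3* fell by 0.53, or with the length correction was called higher, at 0.46 (adjusted p = 0.019). *Smyd2*, which methylates H3K36 and also proteins that are not histones, rose from 25.4 to 61.4 CPM (1.27, adjusted p = 2.3e-06, and 0.88 with the length correction). *Nsd2*, the remaining NSD paralog, was at 24.6 CPM in the controls and 25.4 CPM in the KO mice (adjusted p = 0.84). Without KO mouse 4 the *Nsd2* value was -0.28 (adjusted p = 0.045), and with the length correction it was 0.93 (adjusted p = 0.0013).

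Of 10 genes around SPT6, with *Setd2* and the deleted *Supt6* among them, 7 were lower and none higher, beside 36.8% of all genes lower. With the length correction 6 were lower and 1 higher. *Polr2a*, the largest subunit of RNA polymerase II, fell by 2.47 on the log2 scale (adjusted p = 3.6e-05), from 54.0 to 9.72 CPM. *Iws1*, the protein between SPT6 and SETD2, was at 31.2 and 32.6 CPM and was not called (adjusted p = 0.73), but was called higher with the length correction (1.04). With library totals *Iws1* was called lower (-0.61, adjusted p = 0.023). Of 11 readers of H3K36 methylation, 2 were higher and 7 lower. *Dnmt3a*, a DNA methyltransferase that binds methylated H3K36, fell by 2.17 (adjusted p = 4.6e-06), and *Hdgfl2*, a reader that helps polymerase through nucleosomes, by 1.08. *Mtf2* and *Phf1*, described above, belong to this list too, and *Morf4l1*, a chromodomain reader, rose by 0.42, or was at -0.26 with library totals and 0.15, not called, with the length correction.

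KDM2B binds unmethylated CpG islands, brings a variant form of Polycomb repressive complex 1 (PRC1) to them, and removes H3K36 methylation. *Kdm2b* (chr5:122870664-122989270, minus strand, 23 exons) stood at 51.1, 43.8, 47.8, 54.3 and 51.6 CPM in the controls and at 47.5, 42.4, 44.5 and 44.1 CPM in the KO mice. The ranges overlapped, and this gene varied least of the 10 among the KO mice. *Kdm2b* had a log2 fold change of -0.16 (95% interval -0.38 to 0.06, adjusted p = 0.18). It was called lower with library totals (-0.85, adjusted p = 0.00022) and with upper-quartile factors (-0.24, adjusted p = 0.043), and higher with the length correction (0.46, adjusted p = 0.00055).

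Its paralog *Kdm2a*, also an H3K36 demethylase, fell from 70.6 to 24.4 CPM (log2 fold change -1.53, adjusted p = 2.6e-05, and -0.59 with the length correction). The log2 ratio of *Kdm2b* to *Kdm2a* was -0.44, -0.34, -0.32, -0.63 and -0.70 in the controls and 0.67, 1.19, 1.12 and 0.62 in the KO mice. By count *Kdm2a* was ahead in all 5 controls and *Kdm2b* in all 4 KO mice, whereas per length, from the TPM, *Kdm2b* was already ahead in the controls, at a ratio of at least 1.19, and stood at 3.31 in KO mouse 4. The ratio rose 2.61-fold (two-sided exact permutation test p = 0.0159, adjusted p = 0.0198). Of the 7 H3K36 demethylases other than *Kdm2b*, 4 were lower and none higher, among them *Kdm4b* (-1.01) and *Kdm4a* (-0.79), which remove the trimethyl form. The fourth, *Kdm4d*, chosen here after its values were seen, had 1 to 5 counts in each control and 0 in each KO mouse.

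PRC1 places ubiquitin on histone H2A at Polycomb targets. Of its 25 tested subunits other than *Kdm2b*, 7 were higher and 14 lower, with a median log2 fold change of -0.58. In the variant complex that KDM2B joins, *Pcgf1* was higher (1.09, adjusted p = 0.00063) and *Bcor* lower (-1.06, adjusted p = 0.00027), with *Bcorl1* at -1.94. Neither *Pcgf1* (0.07, adjusted p = 0.66) nor *Bcor* (-0.20, adjusted p = 0.23) was called with the length correction, and *Pcgf1* was at 0.36 (adjusted p = 0.078) with library totals. *Skp1*, shared with ubiquitin ligases, rose by 1.39, and *Bmi1*, known for keeping stem cells cycling, by 1.14. The chromodomain subunit *Cbx6* fell by 1.95 and *Phc1* by 1.70. The deubiquitinase complex that removes the same mark had 2 of 10 genes higher, the catalytic *Bap1* (0.31) and *Foxk2* (0.32), and 6 lower, among them *Foxk1* (-2.40), *Mbd6* (-1.57) and *Hcfc1* (-1.51). With library totals both rises turned, to -0.38 and -0.36.

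Further histone methylation enzymes were counted beside these, most of them known for other lysines, although *Kdm7a* and *Phf8* are also known to act on H3K27. Of 15 other methyltransferases 3 were higher (*Suv39h2* at 1.70, *Kmt5a* at 0.89 and *Setdb2* at 0.40) and 11 lower, the most by *Kmt2a* (-2.08), *Setd1a* (-1.92) and *Setd1b* (-1.91), and of 12 other demethylases 3 were higher (*Kdm7a* at 0.64, *Kdm1a* at 0.30 and *Kdm5a* at 0.29) and 6 lower, the most by *Phf2* (-2.36), *Phf8* (-1.57) and *Kdm5c* (-1.48). The medians were -0.62 and -0.36, beside -0.30 for the 10 genes, and whether the groups differ was not tested. Among 5 genes of histone H3.3 and its chaperones, *H3f3a* rose by 1.91 and *H3f3b* by 1.13, while *Atrx* fell by 0.89. With library totals *Kmt5a* was at 0.21, not called, *Setdb2* turned to -0.30, *Kdm7a* to -0.05, *Kdm1a* to -0.40 and *Kdm5a* to -0.42. With the length correction *Kdm7a* was at 1.60 and *Kdm5a* at 1.31, and *Atrx* turned to 0.14.

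Genes that PRC2 is known to silence were counted as well. Of 50 listed targets, 35 were in the table and 25 had enough counts to be tested, of which 2 were higher (8%) and 11 lower (44%), beside 34.1% and 36.8% of all genes, with a median log2 fold change of -0.66. *Cdkn2a*, which encodes cell cycle inhibitors, was called higher and is named here after its values were seen, with 0 or 1 counts in the controls and 2 to 4 in the KO mice, at the limit of what this depth can show. *Hoxc13*, a hair follicle regulator, fell from 8.90 to 1.07 CPM (-3.04, adjusted p = 6.1e-05), *Isl1* was lower too (-1.90), as was *Gata6* (-1.52).

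Levels can be compared between genes only per length, for which the deposited TPM of the 5 controls and of KO mouse 4 were used. In the controls *Eed* was highest (29.8 ± 1.06 TPM, SD, n = 5). *Kdm2b* (22.8 ± 4.12), *Suz12* (21.5 ± 3.19), *Ezh2* (20.4 ± 2.47) and *Ezh1* (19.8 ± 4.11) followed within their spread of each other. *Jarid2* (13.5 ± 3.20), *Setd2* (12.9 ± 4.17), *Kdm6a* (12.5 ± 2.94) and *Nsd1* (11.1 ± 2.97) formed a lower group, again within their spread, and *Kdm6b* was lowest (7.30 ± 2.83). In KO mouse 4 *Eed* (34.5 TPM), *Suz12* (19.1) and *Ezh2* (18.0) were the highest, *Kdm2b* followed at 10.8, and *Ezh1* (4.21), *Setd2* (2.62), *Nsd1* (2.41) and *Kdm6b* (0.76) the lowest, with *Jarid2* at 6.40 and *Kdm6a* at 4.51 between them.

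The direction of change followed transcript length across all genes. With genes sorted into 5 equal bins by length, in the shortest (up to 1676 bases) the median log2 fold change was 0.89, and in the longest (4985 bases and more) it was -0.86, with 60.6% of genes called lower. Spearman's rho between transcript length and log2 fold change was -0.38 across 16363 genes, which are not independent replicates. The 10 genes differ widely in length: *Eed*, at 2067 bases, and *Ezh2*, at 2787 bases, are the shortest, and *Jarid2*, *Kdm6a*, *Kdm6b*, *Setd2*, *Nsd1* and *Kdm2b* all fall in the longest bin. *Ezh1* and *Suz12* have 4193 and 4373 bases.

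When the trend of each library with transcript length was removed, 6 of the 10 genes were called higher and 4 lower, against 36% and 31.8% of all genes. *Ezh1* (-0.88), *Kdm6b* (-1.77), *Setd2* (-0.81) and *Nsd1* (-0.29) remained lower, and *Ezh2* (0.48), *Eed* (0.88) and *Suz12* (0.81) remained higher. *Jarid2* turned to 0.30 (adjusted p = 0.044), and *Kdm6a* (0.58, adjusted p = 0.025) and *Kdm2b* (0.46, adjusted p = 0.00055) were then called higher. The larger falls among the other genes shrank as well: *Polr2a* was then at -1.62, *Foxk1* at -1.52, *Dnmt3a* at -1.17, *Phf2* at -1.69, *Cbx6* at -1.22, *Setd1a* at -1.12, *Bcorl1* at -1.05, *Setd1b* at -0.93, *Kmt2a* at -0.83, *Phf8* at -0.79, *Kdm5c* at -0.70, *Hcfc1* at -0.56 and *Kdm4b* at -0.50.

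The counts of the lists moved with it. Of 13 PRC2 subunits 9 were then higher and 2 lower, of 26 PRC1 subunits 10 and 8, of 10 genes of the deubiquitinase complex 4 and 3, and of 12 H3K27 demethylases and KMT2C/D partners 6 and 3. Of 8 H3K36 demethylases 2 were higher and 4 lower, of 11 readers 1 and 5, of 15 other methyltransferases 5 and 7, and of 12 other demethylases 6 and 3. Whether length itself or RNA quality lies behind the trend was not tested.

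**Figure D2:**
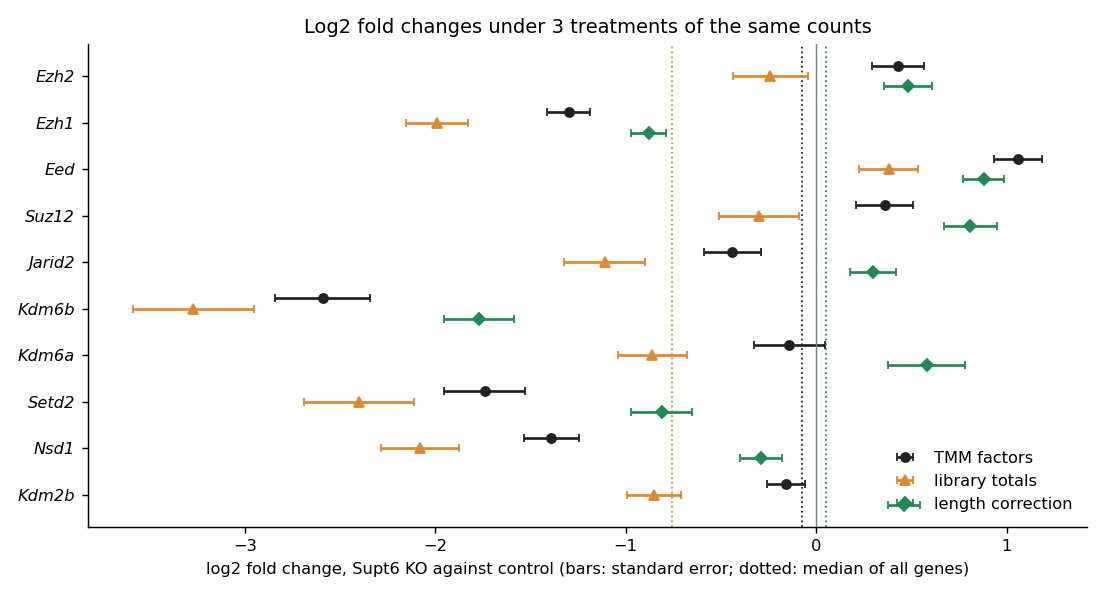
Log2 fold changes with standard errors (horizontal axis) of the 10 genes are given with TMM factors (black circles), library totals (orange triangles) and a length correction (green diamonds), and dotted lines mark the median of all genes under each. *Ezh1*, *Kdm6b*, *Setd2* and *Nsd1* are below 0 and *Eed* above 0 in all 3, and *Ezh2*, *Suz12*, *Jarid2*, *Kdm6a* and *Kdm2b* change sign.

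Scaling shifted every gene. TMM factors were 1.198 to 1.315 in the controls and 0.6738 to 0.9098 in the KO mice. With library totals the median of all log2 fold changes went from -0.07 to -0.76, and 16.9% of genes were called higher and 54.6% lower. *Ezh2*, at -0.24, and *Suz12*, at -0.30, then lay above that median although below 0, and *Kdm6a* (-0.86) and *Kdm2b* (-0.85) were called lower and lay near it. Library totals moved the lists too: of 13 PRC2 subunits 2 were higher and 5 lower, and of 26 PRC1 subunits 3 and 19. In the deubiquitinase complex 0 of 10 genes were higher and 7 lower. Of 12 H3K27 demethylases and KMT2C/D partners 1 was higher and 7 lower, and of 8 H3K36 demethylases 0 and 7. Of 11 readers 1 was higher and 8 lower, of 15 other methyltransferases 1 and 11, and of 12 other demethylases 0 and 10.

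KO mouse 4 was the highest of the KO mice for 8 of the 10 genes, and KO mouse 2 the lowest for 6. The cell cycle genes of this mouse stood out as well. The summed level of 18 proliferation genes, of which *Pcna* was the most abundant, was between 503 and 686 CPM in the controls, 651, 582 and 754 CPM in KO mice 1 to 3 and 1756 CPM in KO mouse 4. Of these genes 7 were higher, led by *Birc5* (2.98), *Ccnb1* (2.45) and *Cdk1* (2.27), which without KO mouse 4 were at 2.42, 1.45 and 1.53, and 2 lower, *Dnmt1* (-1.01) and *E2f1* (-0.82). *Mki67* was at 19.0, 27.2, 37.3 and 80.9 CPM in KO mice 1 to 4 and was not called (adjusted p = 0.32). With the length correction *Mki67* was called higher (1.53) and *Dnmt1* was not called (-0.27). The part of dividing cells in the *Ezh2* and *Suz12* values was not tested.

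The RNA of marker genes of several cell types also differed between the groups. In bulk RNA, fewer cells of a type and less RNA per cell cannot be told apart. Of 10 macrophage markers 9 were higher, and their sum, mostly *Lyz2*, went from 167 to 346 CPM in the controls to between 757 and 1285 CPM in the KO mice. Both with library totals and with the length correction, 5 of these markers were higher and 1 lower. Of 9 tested neutrophil markers, led by *Clec4d*, 8 were higher, with sums of 4.56 to 9.95 CPM and 55.1 to 160 CPM. Of 6 skeletal muscle markers 5 were lower, with sums, mostly *Acta1*, of 3167 to 4278 CPM and 704 to 1189 CPM. Of 5 cartilage markers all were lower (*Acan* the most abundant, 213 to 550 CPM and 37.4 to 47.9 CPM).

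Of 10 keratinocyte markers, led by *Krt10*, 1 was higher and 5 were lower, and their sum lay between 28150 and 31060 CPM in the controls and between 30900 and 43550 CPM in the KO mice. Markers of fibroblasts (4 of 6), endothelium (4 of 5), adipocytes (4 of 5) and T cells (4 of 7) were lower, with 1 T cell marker higher, although the summed adipocyte level overlapped (212 to 387 CPM in the controls and 267 to 406 CPM in the KO mice), and all 5 melanocyte markers were higher. With library totals 1 keratinocyte marker was higher and 8 lower, and 3 melanocyte markers were higher. With the length correction 3 keratinocyte markers were higher and 4 lower, and 2 endothelium markers were lower. None of the markers tested was at 0 in all 5 controls. The part of these cells in the values of the 10 genes was not tested.

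Other annotated genes share exonic bases with 5 of the 10 genes: *Ezh2* (174 bases with *Gm26625*), *Eed* (261 with *E230029C05Rik*), *Suz12* (178 with *Gm26563*), *Kdm6b* (286 with *Kdm6bos*) and *Kdm2b* (627 with *Rnf34* and fewer with *A930024E05Rik* and *Gm44574*). Whether counting used strand is not stated, so reads from these stretches cannot be assigned with certainty.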

How the data were processed

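Skin RNA of 5 control and 4 *Supt6* KO mice was sequenced by the authors as paired reads, aligned to mm10 with Bowtie2 2.3.4.3 and quantified with RSEM 1.3.1. The submitters' notes also name HISAT and DESeq2 1.4.5. The deposited values are expected counts per gene, not normalised between samples, of which 9% are not whole numbers, and the authors also deposited TPM, normalised for length and depth, for 6 of the 9 mice. The annotation release is not given in the sources used here.

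Expected counts were rounded, genes whose counts summed to under 10 were dropped, and the 16426 others were tested with edgeR 4.0.16 (TMM factors, quasi-likelihood test, Benjamini-Hochberg adjustment). Standard errors are the log2 fold change over the root of its F statistic. DESeq2 1.42.0 was an alternative. The test was applied to simulated counts of 5 control against 4 KO mice. There edgeR recovered 75% of 100 genes changed by a log2 fold of 1 and 100% of 100 genes changed by 2. It made 11 false calls among 16327 genes. In the skin data 71% of genes were called, and recovery and false calls with that many changed genes were not tested. Ratios of 2 genes were computed within each mouse with 0.5 added to each count and compared by exact permutation. The p-values measure the spread between these mice, whose small number limits the precision. Of the gene identifiers, 17917 matched RefSeq on GRCm38 and 26 did not. Gene spans and promoters are from RefSeq on GRCm38, the same build as mm10. Strands, exon counts, exonic overlaps and transcript lengths are from GENCODE M21, on that build too. Promoters of *Kdm6b* and *Nsd1* were not used here.

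The length correction removed each library's lowess trend of log2 CPM with transcript length. The other alternatives were library totals, upper-quartile factors, other filters on low counts, removal of the 50 most abundant genes, the replicate number as a block, the Y-linked level as a covariate, a test against a 2-fold change and leaving out each mouse in turn. A fit without the 2 controls that have no Y-linked counts, and the length correction of ratios, were chosen after seeing the data. The 10 genes and the gene lists were chosen with earlier results of these data known. Beside the 10 genes, the text names from each list up to 3 genes in each direction by size among those past the threshold and with 1 CPM or more on average where they were higher, and a set of paralogs and partners named for each gene. A gene that this rule would name is not reported here.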

Additional observations from a re-analysis of the deposited data

Results flagged for a closer look

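*Ezh2* in KO mouse 4, at 52.6 CPM against a median of 37.0 CPM in the KO group, lay far from the nearest other KO mouse, with a gap of 0.852 of the group's range. It was the only value past Dixon's 95% limit among 34 groups examined, and chance would give about 1.7. In the same mouse the summed proliferation genes stood at 1756 CPM, against 582 to 754 CPM in the other KO mice.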

How the results depend on the processing

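*Ezh1*, *Kdm6b*, *Setd2* and *Nsd1* were called lower in all 20 alternatives, with log2 fold changes of -1.99 to -0.88, -3.27 to -1.77, -2.40 to -0.81 and -2.08 to -0.29, and *Eed* was higher in all 20 (0.38 to 1.13), no longer called in the test against a 2-fold change. DESeq2 changed no call among the 10 genes. The count of the 10 genes called higher was 1 with library totals, 6 with the length correction, 1 with the Y-linked covariate, 1 over the mice with Y-linked counts, 0 in the test against a 2-fold change and 2 to 3 when each mouse was left out in turn, and the count lower was then 4 to 5. The count lower was 7 with library totals, 6 with upper-quartile factors and 4 with the length correction, against 5 in the main fit. Over all genes, 2771 were called higher with library totals, and 2271 higher and 2770 lower in the test against a 2-fold change.

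With library totals the direction turned for *Ezh2* (-0.24), *Suz12* (-0.30), *Foxk2* (-0.36), *Bap1* (-0.38), *Ash2l* (-0.21), *Morf4l1* (-0.26), *Setdb2* (-0.30), *Kdm7a* (-0.05), *Kdm1a* (-0.40), *Kdm5a* (-0.42), *Nsd2* (-0.59), *Rbbp7* (-0.39), *Iws1* (-0.61) and *Mki67* (-0.16). With the length correction it turned for *Jarid2* (0.30), *Kdm6a* (0.58), *Kdm2b* (0.46), *Atrx* (0.14) and *Nsd3* (0.46), with the Y-linked covariate for *Kdm6a* (0.19) and *Ddx3y* (-0.34), and over the mice with Y-linked counts for *Kdm6a* (0.15). It turned for *Nsd2* (-0.04) and *Iws1* (-0.03) with upper-quartile factors, for *Nsd2* (-0.00) with at least 10 counts in every mouse, and without KO mouse 4 for *Nsd2*, *Rbbp7*, *Iws1* and *Mki67*, whose values with each mouse left out in turn ranged from -0.28 to 0.17, -0.08 to 0.37, -0.08 to 0.16 and -0.10 to 0.74. For these the cause was not tested.

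The ratios kept their direction under each alternative run on them. With the length correction, added after seeing the data, *Suz12* to *Eed* was -0.10 and no longer called, and the other 4 ratios were still called, at 1.34 for *Ezh2* to *Ezh1*, -2.38 for *Kdm6b* to *Kdm6a*, 1.06 for *Kdm2b* to *Kdm2a* and -0.56 for *Setd2* to *Nsd1*. Over the 7 mice with Y-linked counts, where 0.0571 is the smallest p, the log2 differences were 1.74, -2.81, 1.46, -0.77 for *Suz12* to *Eed* and -0.41, the others in the same order. With a replicate block over 4 pairs, where 0.125 is the smallest p, they were 1.66, -2.31, 1.33, -0.66 and -0.34. With each mouse left out in turn *Setd2* to *Nsd1* ranged from -0.48 to -0.30. Whether the replicate numbers pair the mice was not tested, and 4 pairs are too few to decide it. Same-numbered mice correlated at -0.00733 to 0.244 in their deviations, with a mean of 0.135 over 4 pairs against -0.026 over 16 others. The replicate block changed the call of 1 of the 10 genes, *Suz12* (adjusted p = 0.075).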
